A study of Homo sapiens with 8 samples.

Results

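The 10 genes described here move iron into, through and out of cells: TFRC, TF, CYBRD1, SLC11A2, FTH1, FTL, SLC40A1, HEPH, IREB2 and ACO1. They were chosen by name for their roles, by Ensembl gene ID, and all 10 were found among the 19002 genes of the deposited table. LoVo and GP5d, a pair of established human lines of colorectal cancer, were each profiled on 4 Affymetrix arrays, 1 per biological replicate, from total RNA. Both lines were kept in DMEM with antibiotics and 10% FBS until 80% confluent, and the labels name no treatment or engineered genotype. LoVo was derived from a metastasis of a colon adenocarcinoma and GP5d from a colorectal adenocarcinoma. Each condition is therefore 1 cell line. The labels give no culture, labelling or scan batch, so a difference in handling that ran with the line cannot be told apart from the line itself. The comparison made is LoVo against GP5d.

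Cells take up iron mostly as transferrin bound to the transferrin receptor, and intestinal cells can also import it directly after reducing it at the cell surface. Inside the cell, iron that is not used is stored in ferritin, and ferroportin is the known route of iron export from mammalian cells. The iron regulatory proteins bind hairpins called iron-responsive elements in the RNAs of several of these genes, blocking translation of the ferritins and stabilising the receptor's RNA when iron is scarce. Arrays measure RNA, so control of translation is not seen in the values below.

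The estimated difference between the lines was 2-fold or more at SLC40A1 and CYBRD1, and the 250 bases before the RefSeq start of each are shown because the results turn on these genes, with the letters TATAA in capitals. The array values hold no information on these bases. The SLC40A1 stretch lies at chr2:189580787-189581036 on the minus strand of GRCh38.p14, and the CYBRD1 stretch, before the first of 2 listed starts, at chr2:171521983-171522232 on the plus strand. Both are written 5′ to 3′ along the gene.
SLC40A1: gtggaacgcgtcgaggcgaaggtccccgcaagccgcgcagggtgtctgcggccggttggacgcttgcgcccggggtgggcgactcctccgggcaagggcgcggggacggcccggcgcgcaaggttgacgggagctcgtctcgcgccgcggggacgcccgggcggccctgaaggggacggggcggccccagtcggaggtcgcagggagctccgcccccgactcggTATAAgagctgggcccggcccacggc
CYBRD1: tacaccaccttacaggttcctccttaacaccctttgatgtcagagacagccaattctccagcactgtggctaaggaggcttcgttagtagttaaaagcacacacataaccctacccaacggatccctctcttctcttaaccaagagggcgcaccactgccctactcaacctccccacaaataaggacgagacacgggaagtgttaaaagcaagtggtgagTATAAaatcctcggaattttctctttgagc
The letters TATAA, the core of a TATA box, begin at position -26 from the start of SLC40A1 and at position -30 from that of CYBRD1. Windows of TFRC and SLC11A2, which were not called, also hold these letters, so 4 of 17 windows of members do. Searched on both strands, they occur in 18.9% of the 35114 windows of 250 bases before RefSeq starts. The base composition of the 2 stretches differed: SLC40A1 had 77.2% G and C with 38 CpG dinucleotides, more than 96.7% of all windows held, and CYBRD1 had 47.6% with 6 CpG dinucleotides, against a median of 11 over all windows. The window before the other CYBRD1 start had 67.2% G and C, 17 CpG dinucleotides and no TATAA.

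Letters of the form known from iron-responsive elements are found near the start of FTL, and they are shown because the storage genes are read here as RNA only. The iron-responsive element has a loop of the form CAGTGN and, a few bases before it, a C that bulges out. The 50 bases after each start were searched on the transcribed strand for a C, any 5 bases and then CAGTGN. The FTL match lies at chr19:48965333-48965358 on the plus strand of GRCh38.p14, with the bulged C and the loop in capitals and T standing for the U of the RNA.
FTL: gtctcttgCttcaaCAGTGTttggac
The loop begins at base 39, counted from 1 at the start. FTL was the only member with these letters among 17 windows of 9 members, and 1.67% of all 35114 windows held them. Bases beyond these 50 were not searched, so elements elsewhere in the RNAs of the other members would be missed. No window of FTH1 was used here. The letters TGACNNNGC, the core of an antioxidant response element, were found on either strand in 0 of the 17 stretches before a start and in 10.9% of all such windows. ACGTG and GCGTG, cores of a hypoxia response element, were found in 2 and 6 of the 17, and in 18.5% and 32.2% of all windows. Bases more than 250 before a start were not searched, so elements there would be missed.

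The arrays of a line resembled each other closely, with 1 exception. LoVo replicate 3 correlated across all genes with the rest of its line at 0.989 to 0.991. Correlations were 0.996 to 0.997 among LoVo replicates 1, 2 and 4 and 0.997 to 0.998 among the GP5d arrays (genes are not independent replicates). Among the members, LoVo replicate 3 gave the lowest LoVo value for 5 and the highest for 3, so differences of these members are also given without it where they lie above the low peak. Values at or below 2.81 on the log2 scale, 46.1% of all values, form a peak at the bottom of the scale where order is unreliable. Of the members, 8 lay above this low peak on all 8 arrays, TF lay within it on all 8, and SLC40A1 lay above it on the LoVo arrays only. Levels of different genes are not compared, because probes differ in how strongly they bind.

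Among the 10 members the largest difference between the lines was in SLC40A1, the exporter. A gene was called where its limma p, adjusted over all 19002 genes, was under 0.05 and its log2 difference was at least 1, which is 2-fold. SLC40A1 and CYBRD1 were called, 2 of the 10 members (20%), against 13.3% of all genes tested. Both were higher in LoVo, as were 6.12% of all genes by this rule, and 0 members were called higher in GP5d against 7.2% of all genes. Read against this background, the number of members called is not far from that of genes at large.

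Without the 2-fold minimum, 7 of the 10 members passed the adjusted p of 0.05, against 43.3% of all genes and 64.2% of the 10361 genes with a mean over all arrays above the low peak. Among those brighter genes 22.9% were called with the 2-fold minimum included, and 9 of the members belong to them. SLC40A1 is among these through its LoVo values alone. Genes let in by 1 line differ between the lines by construction, so the shares of 64.2% and 22.9% can partly reflect the filter. Of the 7 that passed, SLC40A1, CYBRD1, HEPH, IREB2 and ACO1 were higher in LoVo, as were 21.5% of all genes. TFRC and FTL were higher in GP5d, as were 21.9%. These shares by direction were not computed for the brighter genes alone, so they are not a like background for the members. SLC11A2, FTH1 and TF did not pass. By role, both export genes and both regulators passed with higher values in LoVo, IREB2 only narrowly. The uptake receptor and 1 of the 2 storage genes passed with higher values in GP5d. Of the reduction and import pair, CYBRD1 passed with higher values in LoVo, and the carrier did not pass. IREB2 lost the threshold in 10 of 18 alternative settings. The 7 of 10 members that passed are not far from the 64.2% of brighter genes, so no pattern by role is drawn from them. The values of the lines did not overlap for 6 members (60%), against 44.1% of all genes, a share not computed for the brighter genes alone. The median absolute log2 difference was 0.45 over the 10 members, 0.25 over all genes and 0.48 over genes with a mean above the low peak.

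**Figure D1:**
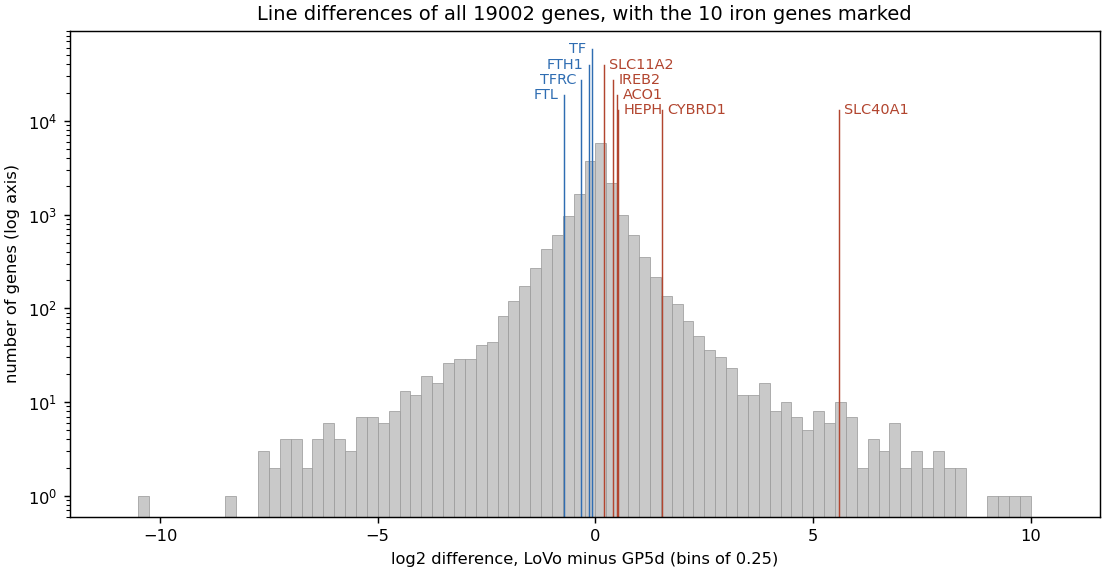
Number of genes (log axis) by log2 difference, LoVo minus GP5d, in bins of 0.25 for all 19002 genes, with a line at each iron gene (red, higher mean in LoVo; blue, higher mean in GP5d). On the values as deposited, SLC40A1, which was in the low peak in GP5d, stands at 5.59 in the right tail and CYBRD1 at 1.52, while the other 8 lie between -0.73 and 0.51.

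SLC40A1 (ENSG00000138449_at) encodes ferroportin, the membrane protein through which cells release iron. Its log2 values were 8.30, 8.22, 8.13 and 8.07 on LoVo arrays 1 to 4 and 2.60, 2.62, 2.53 and 2.61 on GP5d arrays 1 to 4. Every LoVo array was far above every GP5d array, and all GP5d values lay in the low peak, where the gene cannot be told from background. The LoVo mean was 8.18 ± 0.101 and the GP5d mean 2.59 ± 0.0375 (SD, n = 4 each, limma adjusted p = 2.42e-11). The GP5d SD and this p use values in the low peak, so they are no measure of precision there. With the GP5d values raised to the end of the low peak, SLC40A1 was at least 41.5-fold higher in LoVo. That bound was 41.9-fold without LoVo replicate 3 and 40.3 to 42.5-fold whichever array was left out. It depends on where the peak is taken to end and was 33.4-fold with an end at 4 SDs above its mode in place of 3. With all low values raised in this way, the limma adjusted p of SLC40A1 was 1.91e-08, and 66 of the 19002 genes had a larger absolute difference than SLC40A1. A lower level in every cell and a smaller share of cells with the RNA cannot be told apart in these bulk samples.

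HEPH (ENSG00000089472_at) encodes hephaestin, the copper ferroxidase that oxidises iron as ferroportin releases it from enterocytes. The LoVo arrays gave log2 values of 6.08, 6.17, 6.17 and 6.14 and the GP5d arrays 5.87, 5.66, 5.40 and 5.59. The LoVo arrays were tightly grouped and all above the GP5d arrays, of which replicate 1 was the highest. The mean was 6.14 ± 0.0447 in LoVo against 5.63 ± 0.195 in GP5d (SD, n = 4 each), 1.43-fold higher in LoVo (log2 difference 0.51, SE 0.102, 95% CI 0.29 to 0.74, limma adjusted p = 0.00219). Without LoVo replicate 3 the log2 difference was 0.50 (limma adjusted p = 0.00354). Both export genes were thus higher in LoVo, but by unequal amounts. The within-array log2 ratio of HEPH to SLC40A1 was -2.04 ± 0.132 in LoVo against 3.04 ± 0.170 in GP5d (SD, n = 4 each), with no overlap. The difference of 5.08 on the log2 scale gave an exact two-sided permutation p = 0.0286, the smallest that 70 assignments of the arrays allow. Adjusted over the 4 ratios examined, the permutation p was 0.0571, which does not pass 0.05. With the other ratios as they were, this adjusted value could not be lower, so it does not speak to the size of the difference. A ratio across genes has meaning here only when compared between arrays, and this one rests on GP5d values in the low peak. Its separation follows from SLC40A1, whose log2 difference as deposited was 5.59 against 0.51 for HEPH. The test of this ratio therefore adds nothing on HEPH, and 5.08 is no measured size.

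**Figure D2:**
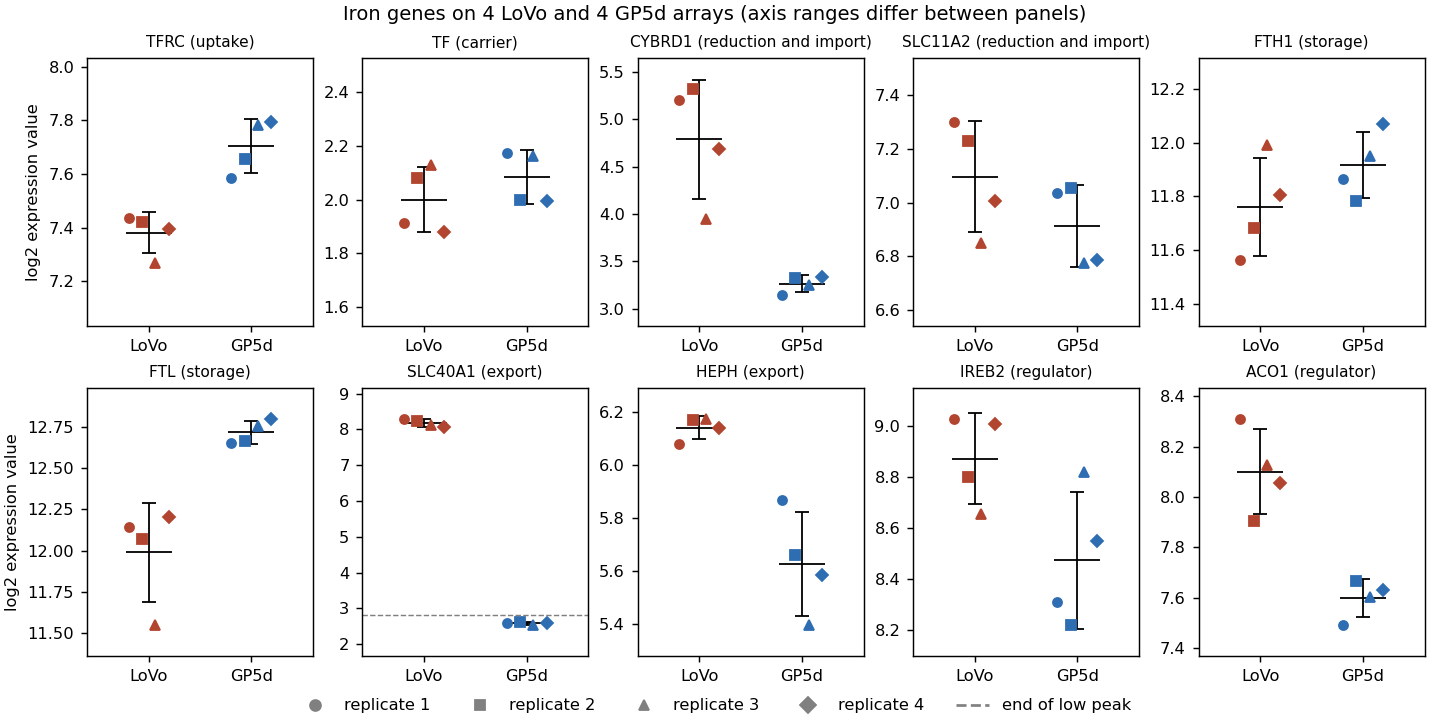
Log2 expression value of each iron gene on 4 LoVo (red) and 4 GP5d (blue) arrays, with the marker shape giving the replicate, the horizontal line the mean and the bar the SD. The vertical range differs between panels and is at least 1 log2 unit, the dashed line is the end of the low peak at 2.81, and the lines separate without overlap for SLC40A1, CYBRD1, HEPH, ACO1, FTL and TFRC.

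CYBRD1 (ENSG00000071967_at) encodes duodenal cytochrome b, a surface reductase that turns ferric iron into the ferrous form. Its log2 values were 5.20, 5.32, 3.95 and 4.68 in LoVo and 3.14, 3.33, 3.25 and 3.34 in GP5d. The lines did not overlap, but the LoVo arrays were spread widely, with replicate 3 the lowest, and the GP5d arrays lay close above the end of the low peak. The means were 4.79 ± 0.626 in LoVo against 3.26 ± 0.0918 in GP5d (SD, n = 4 each), 2.87-fold higher in LoVo (log2 difference 1.52, SE 0.257, 95% CI 0.95 to 2.10, limma adjusted p = 7.62e-04). For comparison, the median LoVo SD of genes with a mean above the low peak was 0.193. Without LoVo replicate 3 the LoVo mean was 5.07 ± 0.338 (SD, n = 3) and the fold was 3.49. The interval reaches below a log2 difference of 1, and limma's treat test, which asks for more than a 2-fold difference, called SLC40A1 alone among the members (6.58% of all genes).

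SLC11A2 (ENSG00000110911_at) encodes DMT1, the proton-coupled transporter that carries ferrous iron across the membrane and out of endosomes. On the log2 scale it was at 7.30, 7.23, 6.85 and 7.01 in LoVo and at 7.04, 7.06, 6.78 and 6.79 in GP5d, and the lines overlapped. The log2 difference was 0.18 (SE 0.120, 95% CI -0.08 to 0.45, limma adjusted p = 0.256), so a difference of 1 or more in either direction lies outside the interval while a small one does not. With 1 array left out it ran from 0.12 without LoVo replicate 1 (limma adjusted p = 0.484) to 0.27 without LoVo replicate 3, the lowest LoVo array (limma adjusted p = 0.0670). Of the reductase and the transporter, which act one after the other in intestinal uptake, CYBRD1 passed and SLC11A2 did not, and the difference between their line effects was not tested.

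TFRC (ENSG00000072274_at), the transferrin receptor, was slightly higher in GP5d. The 4 arrays read 7.44, 7.42, 7.27 and 7.40 on the log2 scale in LoVo and 7.58, 7.66, 7.78 and 7.80 in GP5d, with every GP5d array above every LoVo array. The mean was 7.38 ± 0.0764 in LoVo against 7.70 ± 0.102 in GP5d (SD, n = 4 each), 1.25-fold higher in GP5d (log2 difference -0.32, SE 0.0821, 95% CI -0.51 to -0.14, limma adjusted p = 0.00904). Without LoVo replicate 3 the log2 difference was -0.29 (limma adjusted p = 0.0118). TF (ENSG00000091513_at) encodes transferrin, the plasma carrier of iron made mainly by the liver. Its log2 values ran from 1.88 to 2.13 in LoVo and from 2.00 to 2.18 in GP5d, all within the low peak, so no level and no fold is given (limma adjusted p = 0.498). The receptor was thus measured in both lines, and its ligand was not detected above the low peak in either.

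FTL (ENSG00000087086_at), the ferritin light chain, passed the adjusted p with higher values in GP5d. FTH1 (ENSG00000167996_at), the heavy chain that carries ferritin's ferroxidase activity, did not pass, and neither gene was called with the 2-fold minimum. The FTL log2 values were 12.14, 12.07, 11.55 and 12.20 in LoVo and 12.65, 12.67, 12.75 and 12.80 in GP5d. All GP5d arrays lay above all LoVo arrays, and LoVo replicate 3 was the lowest. The means were 11.99 ± 0.300 in LoVo against 12.72 ± 0.0697 in GP5d (SD, n = 4 each), 1.66-fold higher in GP5d (log2 difference -0.73, SE 0.137, 95% CI -1.04 to -0.42, limma adjusted p = 0.00159). Without LoVo replicate 3 the log2 difference was -0.58 (limma adjusted p = 1.28e-04). For FTH1 the log2 values were 11.56, 11.68, 11.99 and 11.81 in LoVo and 11.86, 11.78, 11.95 and 12.07 in GP5d, which overlap. The FTH1 log2 difference was -0.16 (SE 0.108, 95% CI -0.40 to 0.09, limma adjusted p = 0.285). It was -0.23 without LoVo replicate 3 (limma adjusted p = 0.0663), -0.09 without LoVo replicate 1 and -0.04 after quantile normalization, and it did not pass in any of these.

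LoVo replicate 3 was at once the lowest LoVo array for FTL and the highest for FTH1. The within-array log2 ratio of FTH1 to FTL was -0.58, -0.38, 0.44 and -0.40 in LoVo and -0.79, -0.88, -0.80 and -0.73 in GP5d. Every LoVo array had the higher ratio, and replicate 3 stood well above the other LoVo arrays. The mean ratio was higher in LoVo by 0.57 on the log2 scale (exact two-sided permutation p = 0.0286, the smallest possible with 70 assignments, and 0.0571 adjusted over the 4 ratios). Without LoVo replicate 3 the difference was 0.35, again with no overlap (exact permutation p = 0.0286, and 0.0571 adjusted over the 4 ratios). As for HEPH to SLC40A1, neither adjusted value could be lower with the other ratios as they were. The reference gene table lists 27 pseudogenes named after FTH1 and 20 named after FTL, against 0 for each of the other members, and probes that bind such copies were not separated out, so both ferritin values are uncertain in this respect. The ratio of TFRC to FTH1 overlapped between the lines (log2 difference -0.17, exact permutation p = 0.371), and its difference was -0.05 without LoVo replicate 3 and -0.25 without LoVo replicate 1.

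**Figure D3:**
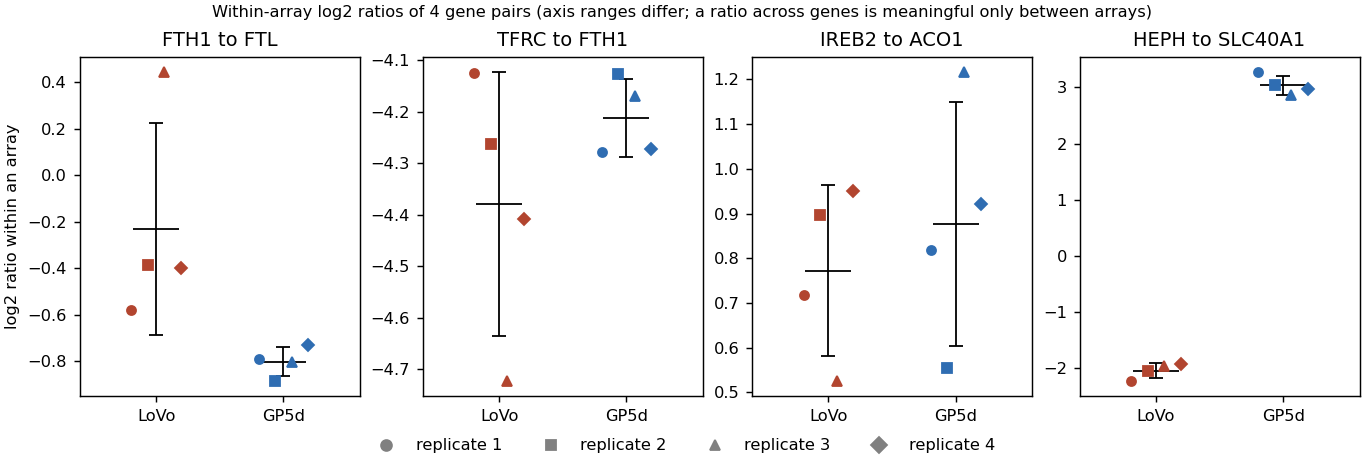
Log2 ratio within each array for 4 pairs of iron genes, on 4 LoVo (red) and 4 GP5d (blue) arrays, with markers for replicates, the mean as a line and the SD as a bar (vertical ranges differ). The ratios of FTH1 to FTL and of HEPH to SLC40A1 do not overlap between the lines, and those of TFRC to FTH1 and IREB2 to ACO1 do.

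Both genes of iron regulatory proteins passed the adjusted p with higher means in LoVo, IREB2 narrowly. ACO1 (ENSG00000122729_at) encodes IRP1, which is a cytosolic aconitase when it holds an iron-sulfur cluster and binds RNA when it does not. Its log2 values were 8.31, 7.90, 8.13 and 8.06 in LoVo and 7.49, 7.67, 7.60 and 7.63 in GP5d, without overlap. The mean was 8.10 ± 0.169 in LoVo against 7.60 ± 0.0752 in GP5d (SD, n = 4 each), 1.42-fold higher in LoVo (log2 difference 0.50, SE 0.0976, 95% CI 0.28 to 0.72, limma adjusted p = 0.00191). The direction held and the limma adjusted p stayed under 0.05 whichever array was left out, with log2 differences of 0.43 to 0.57.

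IREB2 (ENSG00000136381_at) encodes IRP2, which is degraded when iron is plentiful. LoVo replicates gave log2 values of 9.03, 8.80, 8.66 and 9.01, with 8.31, 8.22, 8.82 and 8.55 in GP5d. The lines overlapped, because GP5d replicate 3 lay above LoVo replicates 2 and 3. The log2 difference was 0.40 (SE 0.142, 95% CI 0.08 to 0.72), and the limma adjusted p = 0.0456 was just under 0.05. IREB2 no longer passed when any 1 of 6 of the 8 arrays was left out, with limma adjusted p up to 0.128. The exact permutation p was 0.0857. IREB2 still passed without LoVo replicate 3 (log2 difference 0.47, limma adjusted p = 0.0210) and without GP5d replicate 3 (0.51, limma adjusted p = 0.0114). The within-array log2 ratio of IREB2 to ACO1 was 0.77 ± 0.192 in LoVo against 0.88 ± 0.273 in GP5d (SD, n = 4 each, exact permutation p = 0.543), with no difference shown between the lines. Its difference, -0.10, was -0.02 without LoVo replicate 3 and turned to 0.00768 without GP5d replicate 3.

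**Figure D4:**
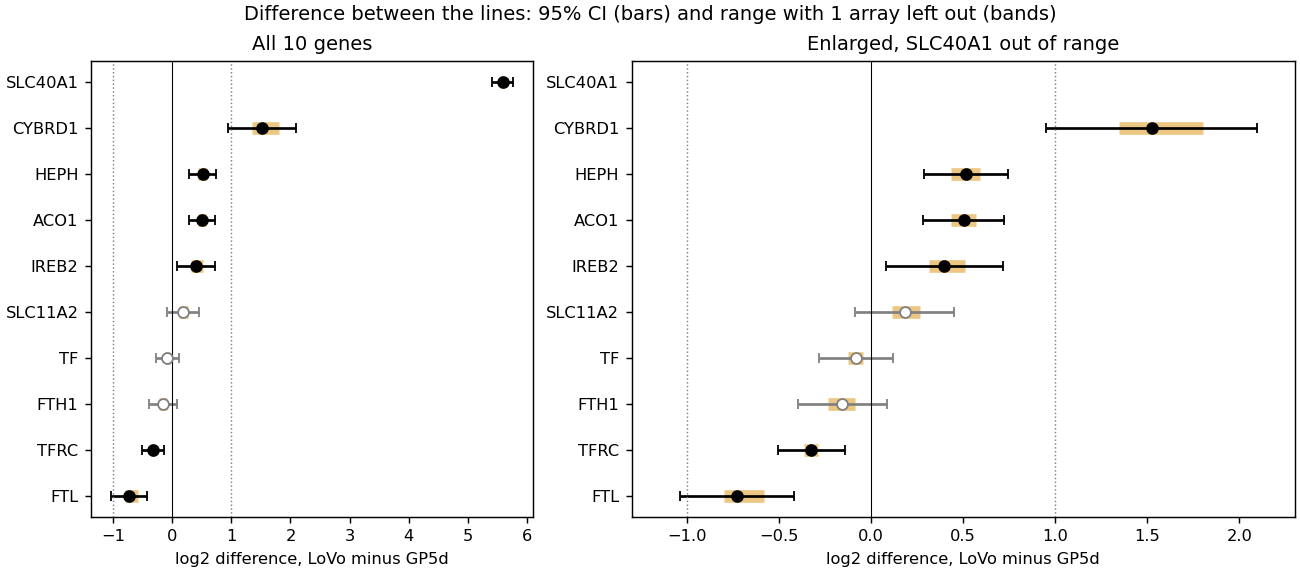
Log2 difference, LoVo minus GP5d, of each iron gene with its 95% CI (bars) and its range with 1 array left out (orange bands), for all genes at left and enlarged at right, where SLC40A1 is out of range. Filled points passed the limma adjusted p of 0.05, dotted lines mark a difference of 1, and SLC40A1 and CYBRD1 lie beyond it, with the lower end of the CYBRD1 interval at 0.95. The SLC40A1 point and interval use GP5d values in the low peak as deposited, so they are no measure of its level there.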

How the data were processed

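Biotin-labelled cRNA from total RNA of 4 LoVo and 4 GP5d cultures was hybridised to Affymetrix arrays, per the labels' protocols. The authors deposited 1 table of log2 values, 1 row per Ensembl gene ID and 1 column per array. The base of the logarithm was settled from the values, whose maximum was 14.7. RMA and GCRMA are both named, without a role, per the submitters' processing notes. The array type and the gene annotation version are not given in the sources used. Column medians lay between 3.05 and 3.11, and genes were not centred.

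The values were compared as deposited by limma (version 3.58.1, R version 4.3.3) with a linear model of cell line and no covariate over the 8 arrays, empirical Bayes moderation and Benjamini-Hochberg adjustment over all 19002 genes. The code was tested on simulated data. The end of the low peak is its mode (1.87, density bandwidth 0.15) plus 3 times the SD below the mode (0.311), a limit set after the values were seen. Ratios of 4 gene pairs were compared by exact permutation. Arrays give no read depth, and their number limits the precision (median SE of a log2 difference 0.109). P-values measure the spread between these cultures, 1 line per condition.

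The members and lists were chosen with earlier results of these data known. All members are named. The reference gene table pairs 0 of its 59792 genes with an Ensembl ID, so symbols were taken from the list of members, and other iron genes and cell type markers were not analysed here. The labelled cell type was thus not checked against markers. Promoter sequences are from RefSeq (GRCh38.p14). No array pair of the 28 held identical columns. Figures were drawn with matplotlib 3.10.9.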

Additional observations from a re-analysis of the deposited data

How the results depend on the processing

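The call of SLC40A1 and CYBRD1, and of 0 other members, held under 3 further normalizations (common median, quantile, cyclic loess), without dim genes, with low values raised, with a trended and robust prior, with array weights and with 1 array left out. By construction the minimum difference and the test decided the counts. Of all genes, 2530 were called, 8230 with no minimum difference, 721 with a minimum log2 difference of 2 and 1250 by limma's treat. For the members these counts were 2, 7, 1 and 1, and treat also left 1 of the 7 that passed the adjusted p. Of 178 alternative values of the members' differences, 163 stayed on their side of the threshold, 15 lost it and 0 changed direction. Of the 15, 10 were for IREB2, and the other 5 were from treat. TF gave no value without dim genes or with low values raised. The log2 ratio of IREB2 to ACO1, -0.10, ran from -0.21 to 0.00768 over the fits that omit an array, turning sign without GP5d replicate 3. The cause was not tested. The SLC40A1 bound of 41.5-fold was 48.2 and 33.4 with low peak ends at 2 and 4 SDs, alternatives chosen after seeing the data. At 2 SDs the GP5d arrays were outside the peak and the value is a fold, no bound.

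Same-numbered replicates of the lines did not deviate together (correlations of -0.0341 to 0.0488). The labels do not say whether such replicates share more than a number. With the replicate block 2530 genes were called, 2529 of them shared, and 6 members passed the adjusted p, IREB2 being lost (limma adjusted p = 0.0750). With paired sign flips the ratios kept their values of 0.57, -0.17, -0.10 and -5.08, but 4 pairs cannot give an exact p below 0.125. Alternatives for other iron genes were not run.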
